A study of Mus musculus with 3 samples.

Results

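The genes described here are 42 mouse genes of mitosis, the part of the cell cycle in which duplicated chromosomes are separated and the cell divides. They were chosen by name, as mitotic kinases, cyclins, checkpoint and kinetochore proteins, spindle motors and cytokinesis factors, and all 42 were measured among the 20577 named genes of the array. Levels were compared between 3 one-colour expression arrays. Each array was loaded with a pool of 5 RNA samples, from cells labelled female. The iHep array holds hepatocyte-like cells, which were spleen fibroblasts from SiO2-remodelled mouse spleens that had received the lentivirus LV-3TF. The PH array holds freshly isolated primary mouse hepatocytes, used as a positive control. The MF array holds the same kind of SiO2-remodelled spleen fibroblasts given the lentivirus LV-NC. Both fibroblast-derived populations carried a lentivirus and were collected 14 days after transduction, and the labels name no promoter or factor for the 3TF virus.

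Mitosis is started by the kinase Cdk1 bound to an A- or B-type cyclin and is driven on by the Polo and Aurora kinases. Chromosomes are then attached to the spindle through kinetochores, a checkpoint holds anaphase until every kinetochore is attached, and the anaphase-promoting complex ends mitosis by marking cyclin B and securin for destruction. Most of these genes are transcribed late in the cell cycle of dividing cells. In resting adult liver hepatocytes rarely divide, whereas fibroblasts divide readily in culture.

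Many mitosis promoters carry a cell cycle genes homology region (CHR), which binds the MuvB complex together with B-MYB and FOXM1, and one or more CCAAT boxes, which bind NF-Y. RefSeq promoter windows of 300 bases, from 250 before to 50 after a start site on GRCm38.p6, were used for 33 of the 42 genes and gave 36 windows. Windows of the 42 genes on 1 chromosome were left out, while the count over all windows kept that chromosome. The letters searched were TTTGAA and TTCGAA for the CHR and CCAAT for the box, each on both strands, and the pair of motifs shared bases in 1 window. CHR letters stood in 29 of 36 windows (80.6%), against 19.2% of all 32851 windows in the table. CCAAT letters also stood in 29 windows (80.6%), against 37.4% of all windows. Both stood together in 26 windows (72.2%), against 7.52% of all windows, and at least 2 CCAAT boxes in 55.6%, against 11.7%. A match describes letters and is not a binding site. The windows of Birc5, Mad2l1, Nuf2 and Pttg1 held neither motif, and the Pttg1 window lies at a start 1482 bases inside the annotated gene. In all, 6 of the 36 windows lie more than 200 bases inside the annotated gene, and the others lie within 127 bases of its end. Besides Pttg1 these are Kif2c, at 3852 bases, Cdc25b, at 512, Ect2, at 375 and 399, and Aurka, at 316, whose windows all held CHR letters.

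Stretches from 120 bases before to 30 bases after the start are shown for 5 genes, with the motif letters in capitals (TTTGAA or TTCGAA for the CHR, CCAAT or its reverse strand ATTGG for the box): the cyclin Ccnb2, which has evenly spaced CCAAT boxes, the kinases Cdk1 and Bub1, the anaphase activator Cdc20, and Spc25, a kinetochore gene whose levels below differ from the others although its promoter carries both motifs. All lie on the minus strand, at chr9:70421525-70421674, chr10:69352883-69353032, chr2:127831830-127831979, chr4:118437314-118437463 and chr2:69206184-69206333 in that order.
Ccnb2: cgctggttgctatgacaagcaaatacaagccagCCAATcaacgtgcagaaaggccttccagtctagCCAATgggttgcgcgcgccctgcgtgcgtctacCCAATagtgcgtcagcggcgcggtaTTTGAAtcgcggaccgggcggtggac
Cdk1: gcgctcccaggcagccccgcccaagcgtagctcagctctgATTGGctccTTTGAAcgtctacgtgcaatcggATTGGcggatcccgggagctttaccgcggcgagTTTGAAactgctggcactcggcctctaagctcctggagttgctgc
Bub1: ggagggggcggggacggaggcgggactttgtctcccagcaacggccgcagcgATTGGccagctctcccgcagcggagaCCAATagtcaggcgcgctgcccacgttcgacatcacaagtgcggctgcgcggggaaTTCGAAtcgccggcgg
Cdc20: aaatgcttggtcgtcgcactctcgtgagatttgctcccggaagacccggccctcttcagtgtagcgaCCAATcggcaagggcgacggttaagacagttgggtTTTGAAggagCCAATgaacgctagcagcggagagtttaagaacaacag
Spc25: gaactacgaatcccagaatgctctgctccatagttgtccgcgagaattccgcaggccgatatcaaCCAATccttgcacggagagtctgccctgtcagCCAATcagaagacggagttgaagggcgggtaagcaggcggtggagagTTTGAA

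**Figure D1:**
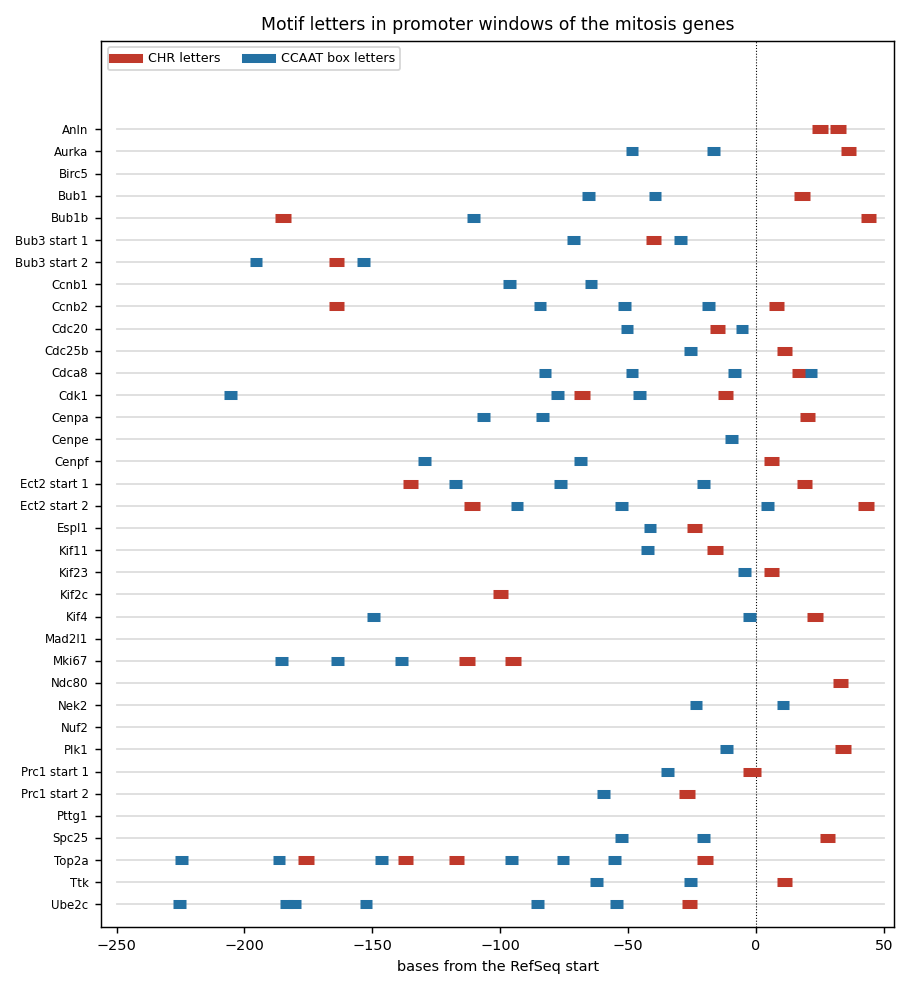
Positions of CHR letters (red) and CCAAT letters (blue), in bases from the RefSeq start (dotted line), in the 36 promoter windows of 33 mitosis genes, 1 window to a row. CHR letters are marked in 29 windows and CCAAT letters in 29, and 4 windows hold none.

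A level below is the log2 processed intensity of a probe minus that of the array's 75th percentile, so level 0 is that percentile. It was 3752 intensity units on iHep, 2081 on PH and 544.3 on MF. A single array stood for each group. Differences between groups therefore have no test and no biological spread and describe these arrays, whose small number limits precision. The pooled SD of a log2 difference was between 0.12 and 0.13 from replicate spots, while different probes of a gene disagreed with an SD of 0.84 when iHep was set against MF, 1.11 when PH was set against MF and 1.09 between iHep and PH. The iHep and PH arrays came from 1 scan and the MF array from another, so scan and group cannot be told apart in comparisons with MF. Of all genes past 2-fold, 45.8% were higher for iHep over MF, against 22.2% under normexp background correction. The share was 54.8% for PH over MF. It was 35.0% with normexp, and 41.4% and 41.5% with quantile-normalized values and the authors' values. Between iHep and PH it was 39.3%, and 55.0% and 55.7% in those same 2 alternatives.

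Marker genes qualified the labels. Summed over 10 genes, hepatocyte markers stood at 2.57 times the 75th percentile in iHep, 582 times in PH and 0.34 times in MF, and Apoa1 failed the background call in iHep. Most of the iHep sum was 1 gene, the transcription factor Hnf4a, at a level of 1.04 in iHep, 5.996 in PH and -5.62 in MF. The other 9 markers summed to 0.515 in iHep, 518 in PH and 0.319 in MF, and albumin (Alb) stood at -4.75, 6.67 and -5.20. Fibroblast markers summed to 53.9 in iHep, 84.1 in PH and 615.0 in MF. Macrophage markers (9 of 10 on the array) summed to 1.52 in iHep, 103 in PH and 90.8 in MF, and C1qa, C1qc and Lyz2 were not well above background in iHep. Adgre1 passed that call in iHep only by its other probe, while the probe used stood at -9.47. PH also carried endothelial (70.0, against 1.25 in MF), lymphocyte (17.3, against 1.27), erythroid (52.9, against 1.90) and pancreatic exocrine markers (546, against 0.46). In iHep these 4 lists summed to 0.83, 1.55, 7.08 and 2.02. What other cells contributed to the mitosis genes was not tested, and in such bulk samples fewer cells of a type and less RNA per cell cannot be told apart.

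Mitosis genes were highest in iHep and lowest in PH on the scaled levels. Before scaling, the order of PH and MF differed by gene. Cdk1 read 1785 intensity units in PH and 1124 in MF, and Plk1 read 635 in PH and 886 in MF. In iHep, 40 of the 42 genes exceeded their MF level by at least 2-fold and none was lower, where 19.9% of all 17092 genes compared were higher and 23.5% lower. In PH, 36 of 41 genes compared were at least 2-fold lower than in MF and 1 was higher, where 25.4% of all genes were lower and 30.8% higher. For iHep over PH 39 of 42 were higher and none lower, where 23.3% of all genes were higher and 35.9% lower. The median log2 difference of iHep over MF was 2.08 for the mitosis genes, beside 0.09 over all genes compared. The PH over MF medians were -1.97 and 0.12, and those of iHep over PH were 4.31 and -0.30. The PH and iHep comparisons with MF share that array, and the differences of iHep over PH come from a single scan.

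Level order was the same for most genes. In 39 of 42 it ran from iHep through MF to PH, counting readings not above background as read. Spc24 and Pttg1 instead read higher in PH than in MF, and Bub3 read highest in MF. All 42 genes were well above background in iHep, 39 in PH and 41 in MF. Ttk and Nuf2 fell below that call in PH, and Cenpf in both PH and MF. At 8-fold, 37 of 42 mitosis genes were higher in iHep than in PH and none lower, beside 4.55% and 12.9% of all genes. In PH 7 of 41 were lower than in MF and none higher (5.43% and 10.8% of all genes), and in iHep 3 of 42 were higher than in MF and none lower (2.67% and 6.77%).

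**Figure D2:**
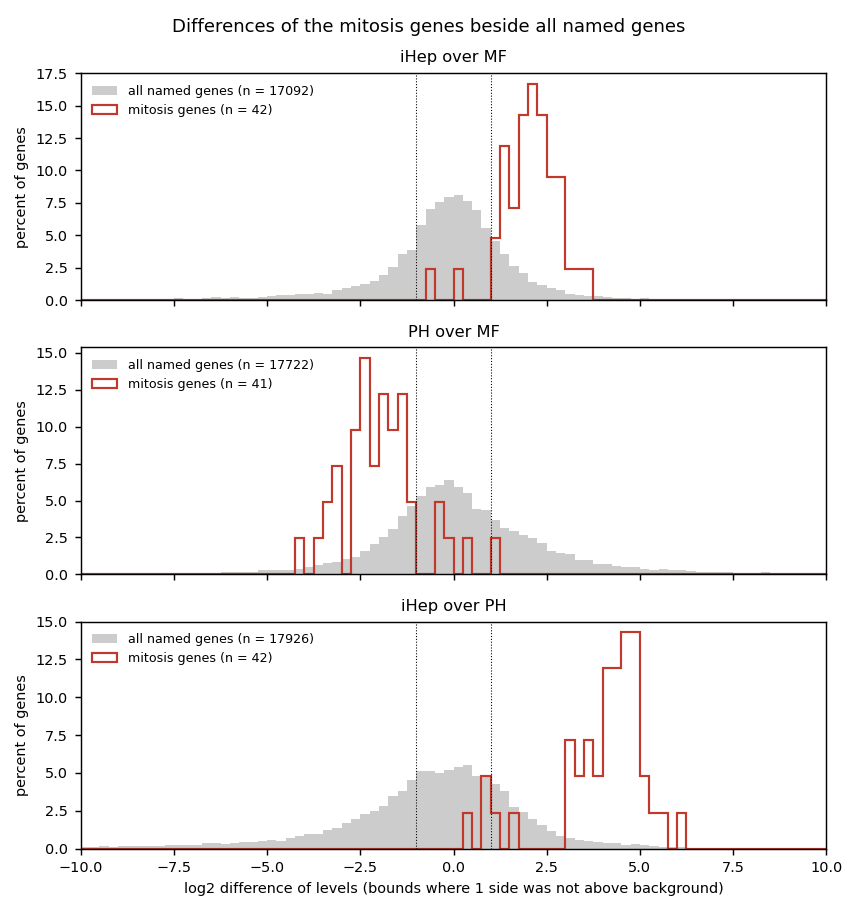
Distribution of log2 differences, in percent of genes, for the mitosis genes (red outline, 42, 41 and 42 genes) and all named genes compared (grey), with 1 panel per pair of arrays. Dotted lines mark 2-fold; the mitosis genes lie mostly right of it for iHep, with medians of 2.08 and 4.31, and left of it for PH over MF, with a median of -1.97.

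**Figure D3:**
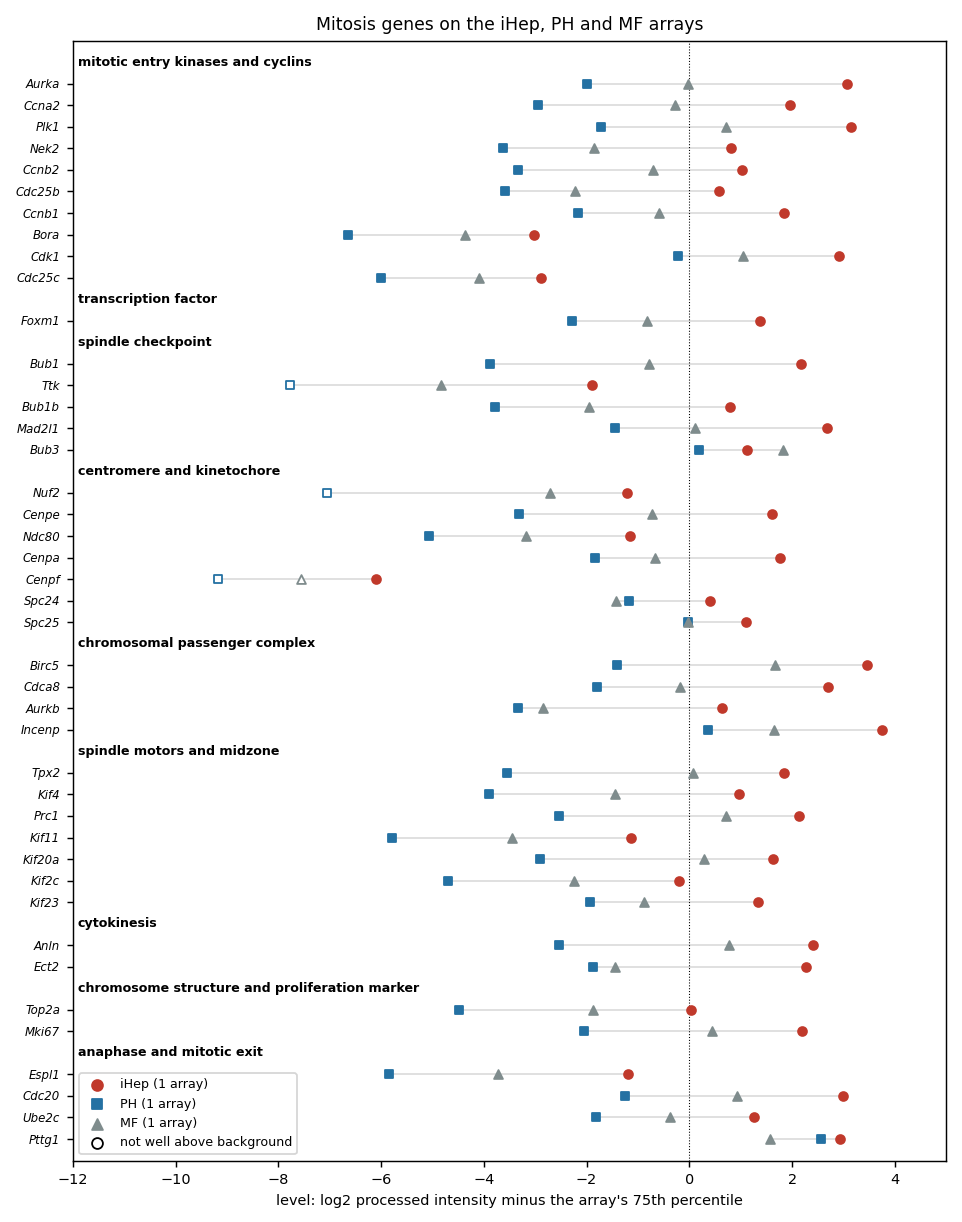
Level of each of the 42 mitosis genes on the iHep (red circle), PH (blue square) and MF (grey triangle) array, by role, with 1 array per group and no error bar; open symbols were not well above background. The circle lies furthest right for every gene except Bub3, where the triangle does.

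The genes that start mitosis shared a direction. All 10 exceeded both PH and MF by at least 2-fold in iHep, and all 10 were at least 2-fold lower in PH than in MF. With normexp background correction the dimmest of them, Cdc25c and Bora, no longer passed 2-fold in iHep over MF, and Cdk1 fell short in PH over MF by other probes. Cdk1, the kinase that triggers mitosis, stood at 2.92 in iHep, -0.22 in PH and 1.05 in MF. It was 3.66-fold higher in iHep than in MF, and 2.41-fold lower in PH than in MF. A second Cdk1 probe, well above background on all arrays, read 1.56 in iHep, -1.23 in PH and -0.98 in MF, which is a log2 difference of PH over MF of only -0.25, and the mean of its probes gave -0.08. Its remaining dim probe differed by 0.19 on the log2 scale between iHep and PH. Ccna2, the cyclin of S phase and mitotic entry, stood at 1.96 in iHep, -2.95 in PH and -0.28 in MF. Ccnb1, the main mitotic cyclin, stood at 1.83 in iHep, -2.18 in PH and -0.59 in MF, and Ccnb2, its Golgi-associated relative, at 1.02, -3.34 and -0.71 on the same arrays. The log2 difference of iHep over PH was 4.91 for Ccna2, and the ratios were 16.1-fold for Ccnb1 and 20.6-fold for Ccnb2.

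Phosphatases that remove the inhibitory phosphates from Cdk1 followed the same order. Cdc25b stood at 0.57 in iHep, -3.60 in PH and -2.22 in MF, a 6.91-fold higher level in iHep than in MF. Cdc25c, by contrast, differed by 2.31-fold between iHep and MF, with levels of -2.90 in iHep, -6.00 in PH and -4.10 in MF. With normexp that log2 difference was 0.029. Aurka, the kinase of centrosome maturation and spindle assembly, had levels of 3.07 in iHep, -2.00 in PH and -0.03 in MF. Bora, the cofactor through which Aurka activates Plk1, was 2.54-fold higher in iHep than in MF and 4.85-fold lower in PH than in MF, and its log2 difference of iHep over MF was 0.00050 with normexp. Plk1, the Polo kinase needed from mitotic entry to cytokinesis, stood at 3.15 in iHep, -1.71 in PH and 0.70 in MF, and so differed almost equally on the 2 sides of MF, 5.45-fold higher in iHep and 5.33-fold lower in PH. Nek2, a kinase that separates the centrosomes, was 6.34-fold higher in iHep and 3.41-fold lower in PH than in MF.

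Foxm1, a transcription factor that activates many of these genes, stood at 1.38 in iHep, -2.28 in PH and -0.83 in MF. It was 4.60-fold higher in iHep and 2.74-fold lower in PH than in MF. A dimmer second probe ran in the same order, at -3.20 in iHep, -6.11 in PH and -5.18 in MF, but its log2 difference of PH over MF, -0.92, did not reach 2-fold.

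Of 5 spindle checkpoint genes 4 were higher in iHep than in MF and in PH, and all 5 were lower in PH than in MF. Bub1, which recruits the checkpoint to kinetochores, was printed in 10 spots on each array and so has its own technical error: its level was 2.18 ± 0.065 in iHep, -3.87 ± 0.13 in PH and -0.79 ± 0.056 in MF (SD over 10 spots each, which are technical repeats of 1 pooled sample). The spots of the 3 arrays did not overlap, with ranges from 2.09 to 2.27 in iHep, from -4.07 to -3.68 in PH and from -0.88 to -0.71 in MF. Bub1 was 66.3-fold higher in iHep than in PH, the largest such ratio among those of the 42 genes measured on both arrays (Nuf2 and Ttk have lower bounds there). It was 7.85-fold higher in iHep than in MF and 8.45-fold lower in PH than in MF. Bub1b (BubR1), a subunit of the mitotic checkpoint complex, had levels of 0.78 in iHep, -3.78 in PH and -1.96 in MF. Ttk (Mps1), the kinase at the head of the checkpoint, stood at -1.89 in iHep and -4.83 in MF and was not well above background in PH. It was therefore at least 32.1-fold higher in iHep than in PH and at least 4.19-fold lower in PH than in MF, each a bound taken from the dimmest signal that PH still showed well above background. With normexp the log2 difference of iHep over PH was 2.83, below that bound, and that of iHep over MF was 0.95, under 2-fold. Mad2l1, which sequesters Cdc20, stood at 2.68 in iHep, -1.44 in PH and 0.11 in MF.

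Bub3, the Bub1-binding partner, differed from the other 4 checkpoint genes. Its levels were 1.12 in iHep, 0.19 in PH and 1.83 in MF. It lay below MF by 1.64-fold in iHep and 3.11-fold in PH, and its ratio of iHep to PH, 1.90-fold, did not reach 2-fold. The difference of iHep over MF stayed between -0.77 and -0.67 under every alternative run for it. Its RefSeq windows held both CHR and CCAAT letters.

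Of 7 kinetochore genes 6 were higher in iHep than in MF and in PH, and 4 of the 6 compared were lower in PH than in MF. Cenpa, the histone variant that marks centromeres, stood at 1.77 in iHep, -1.84 in PH and -0.66 in MF. Cenpe, a kinetochore motor, stood at 1.60 in iHep, -3.32 in PH and -0.72 in MF, a 30.4-fold ratio of iHep to PH. Cenpf, a large coiled-coil protein of the outer kinetochore, had a dim probe, at -6.10 in iHep. It was too dim for the background call in PH and MF, so only bounds can be given: at least 1.15-fold higher in iHep than in MF and at least 1.73-fold higher in iHep than in PH. These bounds do not settle whether it passed 2-fold. With normexp the bounds on the log2 differences were -1.64 and -0.07, which lie below 0 and so set no direction.

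The 4 genes of the Ndc80 complex, which binds microtubules as a unit, did not run in parallel. Ndc80 stood at -1.16 in iHep, -5.08 in PH and -3.18 in MF, so that it was 4.06-fold higher in iHep and 3.72-fold lower in PH than in MF. Nuf2, its direct partner, stood at -1.22 in iHep and -2.72 in MF and was not well above background in PH, at least 18.1-fold lower than in MF. With normexp its log2 difference of iHep over MF was 0.94, under 2-fold, and the bound for PH over MF was -2.73. Spc24 and Spc25, the subunits that anchor the complex to the chromosome, did not differ by 2-fold between PH and MF. Spc24 stood at 0.40 in iHep, -1.17 in PH and -1.43 in MF. Spc25 stood at 1.103 in iHep, -0.04 in PH and -0.02 in MF, a gap between PH and MF of 0.01, inside the 0.25 that 2 SDs of spot noise allow. Their ratios of iHep to PH were 2.97-fold and 2.20-fold, against 15.1-fold for Ndc80 and at least 50.9-fold for Nuf2. Ndc80, Spc24 and Spc25 had 1 probe each, and different probes of a gene disagreed with an SD of 1.11 for PH over MF. What the choice of probe contributed to these contrasts was not tested.

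The chromosomal passenger complex corrects faulty attachments and later guides cytokinesis. All 4 of its genes were higher in iHep than in MF and in PH, and 3 were lower in PH than in MF. Aurkb, its kinase, stood at 0.63 in iHep, -3.34 in PH and -2.86 in MF. It was 11.2-fold higher in iHep than in MF, but its 1.40-fold lower level in PH than in MF stayed under 2-fold, with a log2 difference of -0.49 that reached -1.13 under quantile normalization and -1.14 in the authors' values. Incenp, the scaffold, stood at 3.75 in iHep, 0.36 in PH and 1.65 in MF, and Cdca8 (borealin) at 2.69, -1.79 and -0.19. Birc5 (survivin) stood at 3.46 in iHep, -1.41 in PH and 1.67 in MF by the probe used, with another probe reading otherwise in PH, as given below.

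Spindle motors and midzone proteins shared a direction throughout. All 7 were higher in iHep than in MF, by 1.35 to 2.41 on the log2 scale, and all 7 were lower in PH than in MF, by a log2 difference between -3.63 and -1.04. Kif11, the motor that pushes spindle poles apart, stood at -1.14 in iHep, -5.79 in PH and -3.46 in MF. Kif2c, a microtubule depolymerase at centromeres, was 22.5-fold higher in iHep than in PH. Kif4, a chromosome-bound motor, was 29.2-fold higher in iHep than in PH. Kif20a and Kif23, motors of the midzone, had ratios of iHep to PH of 23.3-fold and 9.56-fold. Prc1, which bundles midzone microtubules, stood at 2.13 in iHep, -2.54 in PH and 0.72 in MF. Tpx2, the spindle factor that activates Aurka, stood at 1.84 in iHep, -3.56 in PH and 0.07 in MF by the probe used.

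Both cytokinesis genes were higher in iHep, but they differed in PH. Ect2, the exchange factor that activates RhoA at the division plane, stood at 2.27 in iHep, -1.87 in PH and -1.45 in MF. Its 13.2-fold ratio of iHep to MF was the greatest of the 42 genes, while PH and MF were within 1.34-fold. Anln (anillin), a scaffold of the contractile ring, stood at 2.41 in iHep, -2.55 in PH and 0.77 in MF, which is 3.11-fold higher in iHep and 9.96-fold lower in PH than in MF.

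Common proliferation markers ran the same way as the machinery. Mki67, which coats mitotic chromosomes, stood at 2.19 in iHep, -2.05 in PH and 0.43 in MF, and its second probe read 2.04, -2.55 and 0.66. Top2a, the topoisomerase that untangles sister chromatids, stood at 0.03 in iHep, -4.48 in PH and -1.89 in MF. The ratios of iHep to PH were 18.8-fold and 22.7-fold.

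Of the 4 genes of anaphase and mitotic exit, Pttg1 stood apart. Cdc20, the activator of the anaphase-promoting complex, had levels of 2.99 in iHep, -1.26 in PH and 0.92 in MF. Ube2c, its ubiquitin-conjugating enzyme, stood at 1.25 in iHep, -1.82 in PH and -0.38 in MF. Espl1 (separase), the protease that cleaves cohesin, stood at -1.19 in iHep, -5.84 in PH and -3.73 in MF. Pttg1 (securin), which holds separase inactive, stood at 2.94 in iHep, 2.57 in PH and 1.56 in MF. It was the 1 gene at least 2-fold higher in PH than in MF, at 2.01-fold, and its log2 difference of 1.01 fell under 2-fold with normexp (0.97), with quantile normalization (0.89), in the authors' values (0.86), and by its dimmer probe (0.099). Between iHep and PH it differed by 1.29-fold, and by a log2 difference of 1.75, past 2-fold, by the dimmer probe. Its target Espl1 differed by 25.2-fold.

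For 13 of the 42 genes the array carried more than 1 probe, 30 in all. For iHep over MF the direction held across probes: 12 of 12 genes with at least 2 probes well above background on both arrays had all probes on 1 side, and 55 of 56 probes of the 42 genes were at least 2-fold higher. For PH over MF 9 of 12 genes agreed in sign, with 43 of 54 probes lower and 3 higher by 2-fold. For iHep over PH 10 of 12 agreed, with 50 of 55 probes higher and 1 lower.

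The disagreements lay in PH. Tpx2's second probe, assigned in the array design to another transcript record of the gene, stood at -1.43 in iHep, 1.57 in PH and -3.96 in MF, so that PH was the highest array by that probe and the lowest by the other. Birc5's second probe stood at 0.20 in iHep, 0.35 in PH and -2.71 in MF, while the third probe stood at -0.08, -5.49 and -1.88, in the order of the probe used. Mad2l1's second probe stood at -2.34 in iHep, -3.87 in PH and -4.41 in MF. For these 3 genes the higher level in iHep than in MF was shared by every probe, and the place of PH was not. The authors' value table holds 32 of the 42 genes, and for Tpx2 and Birc5 it holds only the second probe, which gives log2 differences of PH over MF of 5.33 and 2.94 there.

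**Figure D4:**
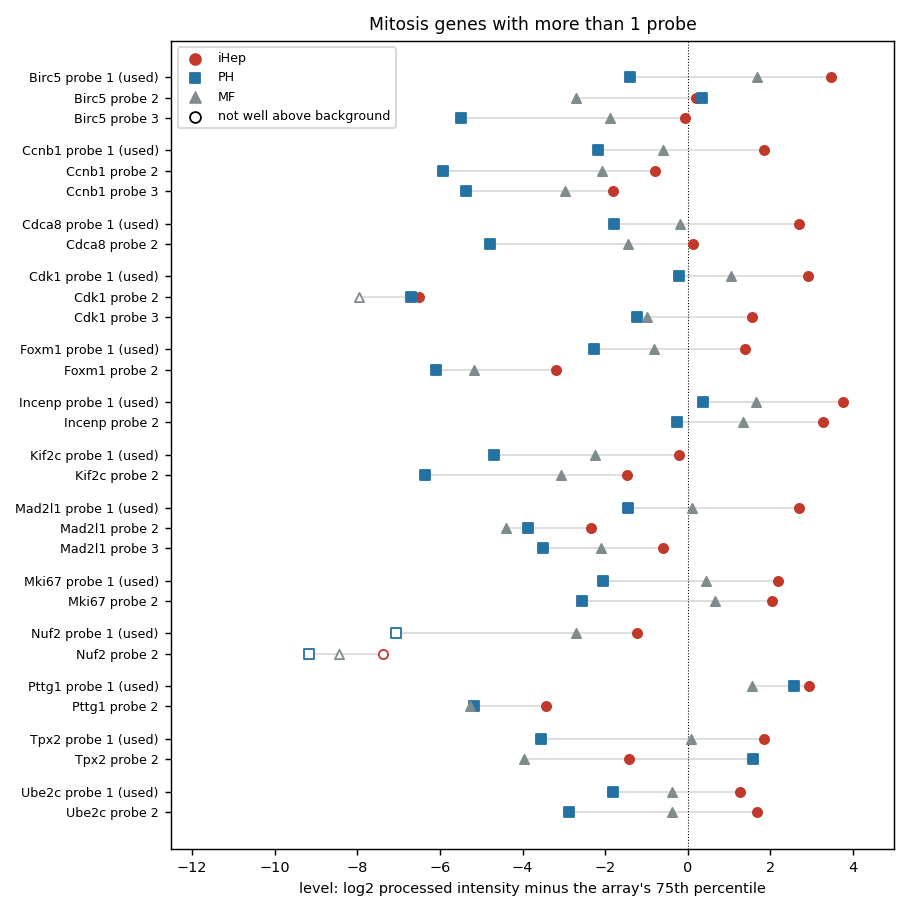
Levels of each probe of the 13 mitosis genes with more than 1 probe, on the iHep (red circle), PH (blue square) and MF (grey triangle) array; open symbols were not well above background. Squares lie left of triangles for most probes, but the second probes of Tpx2, Birc5 and Mad2l1, both probes of Pttg1 and a dim Cdk1 probe, not well above background in MF, have PH right of MF.

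Other genes of the pathway followed in part. Among 119 further mitosis genes, 72 exceeded MF by at least 2-fold in iHep and 4 were lower, with a median log2 difference of 1.42. The shares of all genes were 19.9% higher and 23.5% lower. In PH 66 were lower than in MF and 7 higher, with a median of -1.18, where 25.4% of all genes were lower and 30.8% higher. Set against PH, iHep had 92 higher and 3 lower, and the median was 2.35, where 23.3% of all genes were higher and 35.9% lower. Kif18b, a spindle motor, was highest of the 119 genes in iHep over both other arrays, at 0.87 in iHep, -5.54 in PH and -3.35 in MF. Sgo1, which protects centromeric cohesion, and Trip13, which takes the checkpoint complex apart, were 52.7-fold and 44.0-fold higher in iHep than in PH. In PH the lowest relative to MF were Cenph, a centromere protein, Spdl1, which brings dynein to kinetochores, and Plk4, the centriole kinase, at 17.0-fold, 15.9-fold and 14.2-fold lower.

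The counts of each list stand beside 19.9% higher and 23.5% lower among all genes in iHep over MF, and 25.4% lower in PH over MF. Centromere and kinetochore genes had 25 of 32 higher in iHep than in MF and 1 lower (Cenpt, a centromere protein, 2.31-fold), and 22 of 32 lower in PH than in MF. Condensin, cohesin and chromosome structure genes had 12 of 17 higher in iHep than in MF and 8 of 17 lower in PH than in MF. Spindle and cytokinesis genes had 16 of 23 higher in iHep and 16 of 23 lower in PH than in MF, and genes of mitotic entry 9 of 17 and 10 of 17. Core subunits of the anaphase-promoting complex made up most of a list in which 2 of 14 were higher in iHep than in MF and 1 lower, with a median of 0.20. Within it the inhibitor Fbxo5 (Emi1) was highest, at 2.54, and the cullin-like subunit Anapc2 was lowest, 2.15-fold lower in iHep than in MF and 3.21-fold lower in iHep than in PH.

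Regulators of the late cell cycle programme had 9 of 17 genes higher in iHep than in MF and 2 lower. In PH 5 of 17 were lower than in MF and 2 higher, with a median of -0.24. That share lower was near the 25.4% of all genes, of which 30.8% were higher. Mybl2 (B-MYB) stood at 2.55 in iHep, 0.74 in PH and -0.94 in MF, and E2f7, a repressor, at 1.62, -2.09 and -1.67. The MuvB subunit Lin37 was 2.27-fold lower in iHep than in MF, and its complex partner Lin52 was 2.47-fold lower in iHep than in PH. In PH, Cep55, of the final cut between daughter cells, Stil, of centriole assembly, and Mybl2 were highest relative to MF, at 4.60-fold, 4.15-fold and 3.20-fold. Cep55 was also 6.68-fold lower in iHep than in PH, but its log2 difference turned to 4.39 with normexp, 1.65 with the mean of probes and 6.04 with the dimmer probe. Under normexp the brightest probe was picked anew, so the 4.39 may come from the other probe. Cep55 and Mybl2 each had 2 probes, and by the dimmer one the log2 differences of PH over MF were -3.66 and -2.34.

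**Figure D5:**
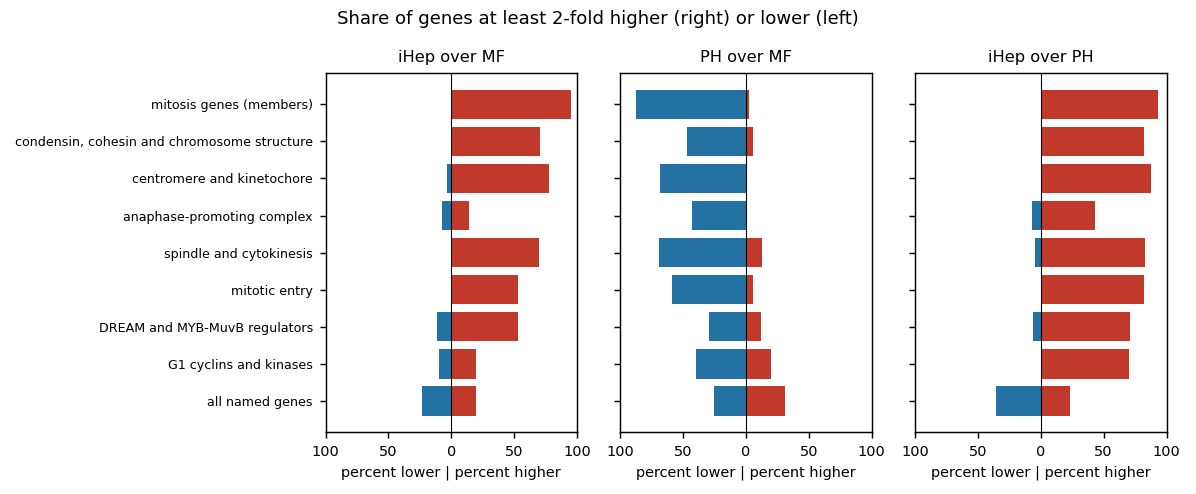
Percent of genes at least 2-fold higher (red, to the right) or lower (blue, to the left), with 1 panel per pair of arrays, for the 42 mitosis genes, the other pathway lists, the cyclins and kinases of the G1 phase, and all named genes. In iHep over MF the mitosis genes have 40 of 42 to the right and the anaphase-promoting complex list 2 of 14.

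Cyclins and kinases of the G1 phase, which act before DNA replication, were counted beside them. Of 10 such genes 2 exceeded MF by at least 2-fold in iHep and 1 was lower, with a median log2 difference of 0.27, beside the 19.9% and 23.5% of all genes. Ccne2, a cyclin E, was 25.6-fold higher, at -0.67 in iHep, -4.24 in PH and -5.34 in MF, and the D-cyclin kinase Cdk6 5.01-fold higher. Both were dim in MF, with Cdk6 at -5.26, where the lowest level well above background was -6.30. Ccnd2, a cyclin D, was 5.74-fold lower, at 1.38 in iHep, -0.65 in PH and 3.91 in MF. The others were within 2-fold of MF: Cdk4, at 3.99 in iHep, 3.91 in PH and 4.02 in MF, differed little between any of the arrays, and Ccnd1, Ccnd3, Ccne1, Cdk2, Cdc25a and the retinoblastoma gene Rb1 had log2 differences of 0.47, -0.22, 0.20, 0.34, 0.87 and -0.18. In PH over MF 4 of 10 were lower and 2 higher, where 25.4% of all genes were lower and 30.8% higher. Ccnd2 was 23.5-fold and Ccne1 9.11-fold lower. The 2 that were higher, Ccne2 and Cdk6, lay below MF with normexp, at log2 differences of -0.49 and -0.70. For iHep over PH 7 of 10 were higher and none lower, with a median of 1.64. There 23.3% of all genes were higher and 35.9% lower.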

How the data were processed

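Levels came from the deposited scanner files. Per the file headers these hold spot intensity values made with Agilent Feature Extraction 11.0.1.1, background-subtracted and detrended within an array, on a design annotated on mm9. Version 9.1 is the one in the submitters' processing notes. Per the labels, the extraction protocol is written for blood, with globin reduction. The deposited value table holds log2 values for 26049 probes, with scale and centring unstated. Its columns, with medians of 7.01, 7.07 and 7.02 for iHep, PH and MF, correlated with the scanner's log2 values at 0.998, 0.994 and 0.997, and its differences ran in the same direction. It served as an alternative. The scanner software's call of well above background was used as deposited.

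Here log2 intensity minus each array's 75th percentile was used, after leaving out control spots and 230, 383 and 190 outlier spots on iHep, PH and MF. No spot was saturated. Probes were named through RefSeq transcript accessions of GRCm38.p6 (27234 of 39429, none with several symbols). For a gene with several probes the brightest by mean level was used, and it was picked anew under each other scaling. A gene was above background when any probe was, and a fold with 1 dim side is a bound from the lowest level well above background on that array. Genes were counted at 2-fold, with 8-fold beside it. No test was possible.

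The 42 genes and all lists were chosen with earlier results of these data known. All 42 genes were named. Of the other pathway genes, 119 of 121 were on the array, and the 3 highest and 3 lowest differences above background on both arrays were named per comparison, with genes of the G1 phase in full. Foxm1's second probe, Fbxo5, Hnf4a and Alb were added after their values were seen. Protein sequences planned for comparison were not used here. Alternatives were normexp (limma 3.58.1 in R 4.3.3, offset 50, on median signals), quantile normalization, a scale set by the median probe above background on all arrays, the authors' table, both filters on dim probes, the mean or dimmest probe, and 4-fold and 1.5-fold thresholds. The steps were tested on simulated data.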

Additional observations from a re-analysis of the deposited data

How the results depend on the processing

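No count or median of the 42 genes changed direction under any alternative run. Apart from the fold thresholds, the number at least 2-fold higher ran from 31 to 41 for iHep over MF and from 28 to 40 for iHep over PH, and the number lower in PH over MF from 27 to 37, the lowest of each being in the authors' table, which holds 32 of the genes. At 4-fold 24 were higher in iHep than in MF and 20 lower in PH than in MF, and the shares of all genes at 4-fold were not counted. The median log2 difference of iHep over MF was 1.82 under normexp and 2.24 in the authors' table. For PH over MF it was -1.79 with normexp, -2.65 with quantile normalization, -2.59 from the authors' table and -2.19 with the dimmest probe. For iHep over PH it was 3.75 with normexp, 4.80 with quantile normalization and 4.88 from the authors' table. In the order iHep over MF, PH over MF, then iHep over PH, normexp moved the median of all genes by -0.72, -0.62 and -0.12, quantile normalization moved it by 0.10, -0.31 and 0.50, and the authors' table by 0.09, -0.31 and 0.51. Of 116 differences of the 42 genes past 2-fold, 111 stayed past it in the same direction under normexp and 115 under quantile normalization. With normexp iHep over MF fell under 2-fold for Cdc25c, Bora, Ttk and Nuf2. The bound for Cenpf moved from 0.20 to -1.64, which sets no direction. Some of the 42 genes turned where another probe was read. Tpx2 over MF in PH was 5.33 in the authors' table, 0.95 with the mean of probes and 5.53 with the dimmest, and its iHep over PH was -2.84 in the authors' table and -2.996 with the dimmest probe. Birc5 was 2.94 in PH over MF and -0.11 in iHep over PH in the authors' table, and Mad2l1 0.54 in PH over MF with the dimmest probe and -0.81 with the mean. Among the other genes, PH over MF turned for Ccne2 (-0.49) and Cdk6 (-0.70) under normexp, for Lin52 (-0.29) with the dimmest probe, for Mybl2 with the mean (-0.33) and dimmest probe (-2.34), and for Cep55 under normexp (-2.60), with the mean (-0.73) and with the dimmest probe (-3.66). In iHep over PH Cep55 was 4.39, 1.65 and 6.04 under the same 3. The causes were not tested. No paired analysis was possible because each group has 1 array. Dim probes limit Cenpf, Ttk, Nuf2, Cdc25c and Bora.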
